A study of Mus musculus with 18 samples.

Results

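The 39 genes described here encode the machinery that copies the genome in S phase. They were chosen by symbol from the 24062 genes of the count table, all 39 were found there, and all 39 were among the 14271 genes that passed the filter on low counts. The list is one of names and sets no condition on measured values, though it was drawn up with earlier results of these data known. By role they comprise 10 genes of origin licensing (Orc1, Orc6, Cdc6, Cdt1 and Mcm2 to Mcm7), 6 of helicase activation (Mcm10, Cdc45 and Gins1 to Gins4), 6 of the sliding clamp and its loader (Pcna and Rfc1 to Rfc5), 9 of the DNA polymerases and primase (Pola1, Pola2, Prim1, Prim2, Pold1, Pold2, Pold3, Pole and Pole2), 4 of single-strand binding and strand maturation (Rpa1, Rpa2, Fen1 and Lig1) and 4 of nucleotide supply (Rrm1, Rrm2, Tyms and Tk1).

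Replication starts at origins that are licensed in G1, when the origin recognition complex, CDC6 and CDT1 load the ring-shaped MCM helicase onto DNA. In S phase CDC45 and the GINS complex join MCM to form the active helicase, the primase of polymerase alpha lays down primers, and polymerases delta and epsilon extend them while held by the clamp PCNA. Most of these genes are transcribed under E2F factors as cells leave G1, so their mRNA marks tissue with many cycling cells, such as the crypts of the intestine and the adenomas that arise when APC is lost.

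RNA sequencing measured 18 intestinal tumours of male C57BL/6 mice, and the design text asks how transcripts differ by Macrod2 genotype. All mice carried ApcMin/+, an allele of the Wnt regulator Apc that causes intestinal adenomas, so the controls carry it too. The controls were ApcMin/+/Macrod2+/+ (wt), and the other groups were ApcMin/+/Macrod2-/+ (het) and ApcMin/+/Macrod2-/- (hom); the product of Macrod2 is a hydrolase that strips ADP-ribose off modified proteins. The source labels place 6 wt, 5 het and 6 hom tumours in the large intestine and the tumour of het mouse 4 in the small intestine, and this last tumour entered no comparison. The labels list no treatment, and they give no age, no extent of the Macrod2 deletion and no batch. Whole resected tumours were used, so every value mixes tumour epithelium with stroma and blood cells, and fewer cycling cells in a tumour and less RNA of a gene in each cycling cell cannot be told apart.

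Levels are given in CPM, read counts scaled to library size with TMM factors, for the comparison of 1 gene between tumours, and in RPKM, which is also divided by gene length, for the comparison between genes. Libraries held 13529204 to 20857918 counts, and the 39 genes together took 0.147% to 0.387% of a library. The lowest count of any of the 39 genes in any tumour was 57 and the highest 5519, so no value rests on a handful of reads. Macrod2 stood at 2.93 to 4.55 CPM in wt, 1.61 to 2.21 CPM in 4 of the het tumours and 0 to 0.405 CPM in hom. Het 6 had 3.48 CPM, within the wt range, so its Macrod2 level does not tell it from a wt tumour. Of the wt libraries 3 stood apart from the others. Wt 1 and wt 2 carried transcripts of the proximal small intestine, such as the lactase gene Lct at 924 and 1664 CPM. The small intestinal het tumour had 821 CPM of Lct, while the remaining 15 of the large intestine had 0.303 to 45.6 CPM. Wt 2 also held 7921 CPM of 8 mast cell genes. In wt 3 the ribosomal RNA precursor Rn45s took 27.0% of the counts, against 0.725% or less elsewhere. The posterior colon markers Hoxd12 and Hoxa13 were at or near 0 in all 18 tumours, at most 0.0470 CPM. Hoxb13 and Hoxd13 were highest in wt 2, at 1.04 and 0.415 CPM. Both were at 0 in the small intestinal het tumour and in most of the large intestinal ones. These Hox genes do not separate the labelled sites. The ileal bile acid binding gene Fabp6 ranged from 1.73 to 1664 CPM. It was lowest in wt 2 (1.73 CPM), wt 1 (2.06 CPM) and the small intestinal het tumour (2.30 CPM), and at 11.2 CPM or more elsewhere. By Lct and Fabp6, wt 1 and wt 2 were thus like the small intestinal tumour despite their large intestinal label. The counts and medians of hom and het against wt are therefore also given without wt 1, wt 2 and wt 3.

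The short promoter stretches below are shown because the E2F motif is the sequence feature by which these genes are known to be co-regulated, and because the choice of the genes made no use of it. RefSeq promoter windows on GRCm38.p6, from 250 bases before to 50 after each start, were found for 32 of the 39 genes (37 windows), and Gins1, Gins2, Gins4, Mcm4, Pole, Prim2 and Rfc2 had none. The E2F letters searched were TTTCCCGC, TTTCGCGC, TTTGCCGC and TTTGGCGC on both strands, where overlapping matches can share bases. The stretches shown are those whose matches, with 9 bases on either side, lie wholly before the RefSeq start of their window. The GENCODE spans of some genes begin further upstream than that start. The stretches of Cdc6, Gins3 and Mcm7 lie inside those spans, and that of Orc1 lies partly inside. Capitals mark the matching letters, joined where 2 matches overlap, and each stretch is read 5′ to 3′ on the strand of its gene.
Mcm6 (chr1:128359795-128359824, - strand): gcgtatgctTTTGGCGCGAAAagtgcgtgc
Mcm6 (chr1:128359736-128359761, - strand): ttggacgggTTTGGCGCgaagtagct
Orc1 (chr4:108579418-108579443, + strand): cggttagtgGCGCGAAAagttttctc
Mcm7 (chr5:138172032-138172057, - strand): tttcgaaccGCGGGAAAcagggtgtc
Mcm5 (chr8:75109347-75109376, + strand): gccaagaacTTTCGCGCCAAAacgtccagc
Gins3 (chr8:95633509-95633534, + strand): gagtgcggcGCGGGAAAgcgagtttg
Cdc6 (chr11:98908004-98908029, + strand): cggtggagaGCGGGAAAtcgcctggg
Pola1 (chrX:93632277-93632302, - strand): catcacaggGCGCCAAAtgcactccc

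The capitals begin 110 and 47 bases before the start in Mcm6, 27 in Orc1, 165 in Mcm7, 153 in Mcm5, 41 in Gins3 and 138 in both Cdc6 and Pola1. In Mcm6 and Mcm5 a match on each strand overlaps into 1 run. Over the whole window 14 of the 32 genes (43.8%) held the letters, against 2.26% of all 32851 windows and 3.56% of the windows of genes that passed the filter on low counts. The 14 were Cdc6, Cdt1, Gins3, Lig1, Mcm3, Mcm5, Mcm6, Mcm7, Orc1, Pola1, Pold1, Pold3, Pole2 and Rfc3, and in 8 of them a match lay before the start. The eighth is Rfc3, whose TTTCGCGC begins 10 bases before the start, too close for the flank. The CCAAT box, CCAAT on either strand, was in 20 of the 32 genes (62.5%), against 37.4% both of all windows and of those of genes past the filter. The GC box, GGGCGG on either strand, was in 24 (75%), against 35.7% of all windows and 60.1% of those of genes past the filter. The letters of the cell cycle homology region typical of mitotic genes, TTTGAA on either strand, were in 5 (15.6%), between the 17.9% of all windows and the 12.2% of those of genes past the filter. These are matches of letters in a window and were not measured as bound sites.

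Per length of gene, the clamp gene Pcna stood highest and the GINS subunit gene Gins3 lowest among the 39. The median RPKM over the 17 large intestinal tumours was 94.2 for Pcna, 52.9 for the helicase subunit gene Mcm6, 46.3 for Rrm1, the large subunit of ribonucleotide reductase, 46.0 for the loader subunit gene Rfc2 and 44.9 for Mcm3. At the other end it was 5.67 for Pola1, the catalytic subunit of polymerase alpha, 5.51 for the licensing factor gene Cdc6, 3.13 for the origin recognition gene Orc1 and 2.89 for Gins3. The median over all genes tested was 8.91 RPKM, and 33 of the 39 lay above it. Many neighbours in this order do not differ beyond their spread: the RPKM of Mcm6 ran from 28.8 to 78.8 and that of Rrm1 from 24.8 to 75.4. Subunits of 1 complex were not level either. Pold3, an accessory subunit of polymerase delta, had a median of 36.1 RPKM, Pold2 30.8 and the catalytic Pold1 8.79. Within the MCM ring the medians ran from 30.7 RPKM for Mcm5 to 52.9 for Mcm6.

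**Figure D1:**
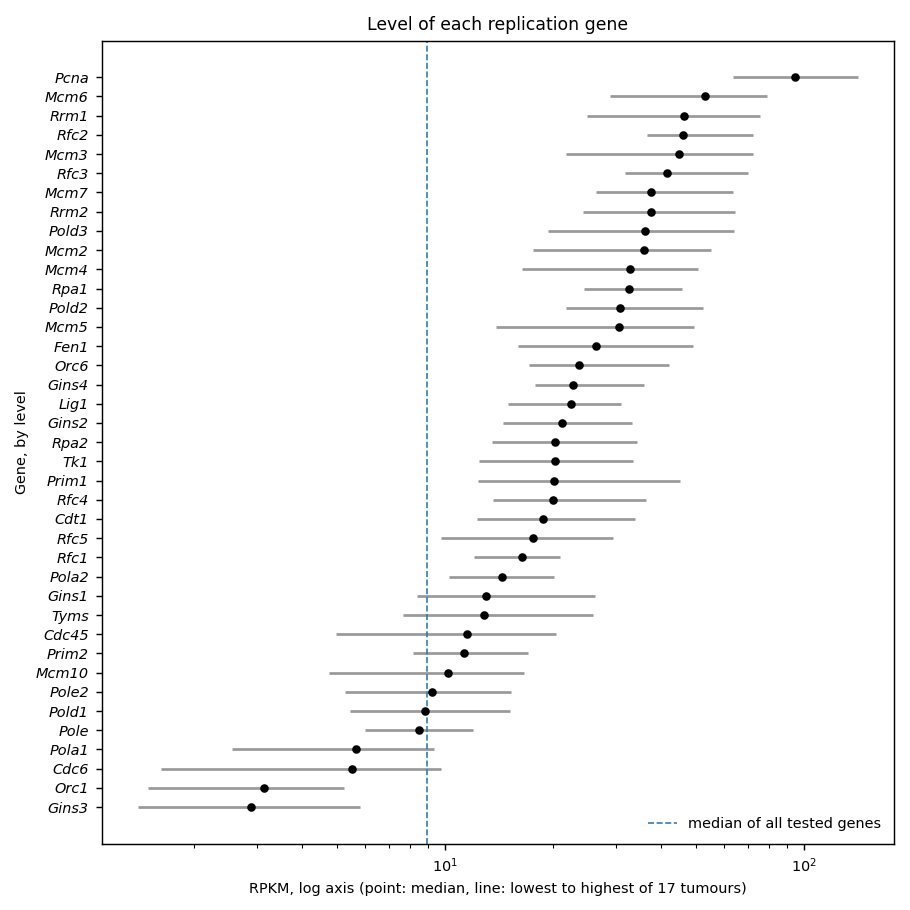
RPKM on a log axis for each of the 39 replication genes, ordered by level, with the median of the 17 large intestinal tumours as a point and the lowest to the highest tumour as a line. Pcna stands highest at 94.2 and Gins3 lowest at 2.89, and the dashed line marks the median of all tested genes at 8.91.

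Across tumours the levels of the 39 genes were high and low together. The pairwise correlation of their log2 CPM over the 17 tumours had a mean of 0.827 and a median of 0.870, against a mean of 0.00283 over all genes tested. Its mean was 0.825 when each tumour was set against its own genotype mean. The trait is not particular to replication genes, as 30 mitosis genes had a higher mean of 0.900 and median of 0.918. These correlations describe the tumours, share each library's scaling and carry no test. The clearest exception was Rfc3, a loader subunit gene, whose correlation with the mean of the other 38 was 0.391, followed by Pola1 with 0.726 and Pole with 0.773, while Tyms, which encodes thymidylate synthase, reached 0.977. The spread between tumours of a genotype was wider than usual, with a median SD of 0.404 log2 units for the 39 genes and 0.331 for all genes. It ran from 0.218 for Rfc1 to 0.632 for Cdc6. From the lowest to the highest tumour Cdc6 spanned 6.02-fold in RPKM, Gins3 4.16-fold and the helicase factor gene Cdc45 4.10-fold, and Rfc1 1.73-fold.

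The same few tumours lay at the ends for nearly every gene, and they came from all 3 genotypes. Wt 4 was among the 3 highest tumours for 37 of the 39 genes, wt 5 for 38 and het 6 for 31. At the low end het 1 was among the 3 lowest for 37 genes, hom 3 for 35 and hom 6 for 28, and hom 3 was the lowest of all for 25. The mean log2 CPM of the 39 genes, relative to the 17 tumours, was 0.64 in wt 4, 0.60 in wt 5 and 0.53 in het 6, and -0.67 in hom 3, -0.58 in het 1 and -0.40 in hom 6. Wt tumours had a mean score of 0.17 ± 0.36 (SD, n = 6), the 5 het tumours 0.00 ± 0.42 and the 6 hom tumours -0.17 ± 0.30, so the groups overlapped widely.

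**Figure D2:**
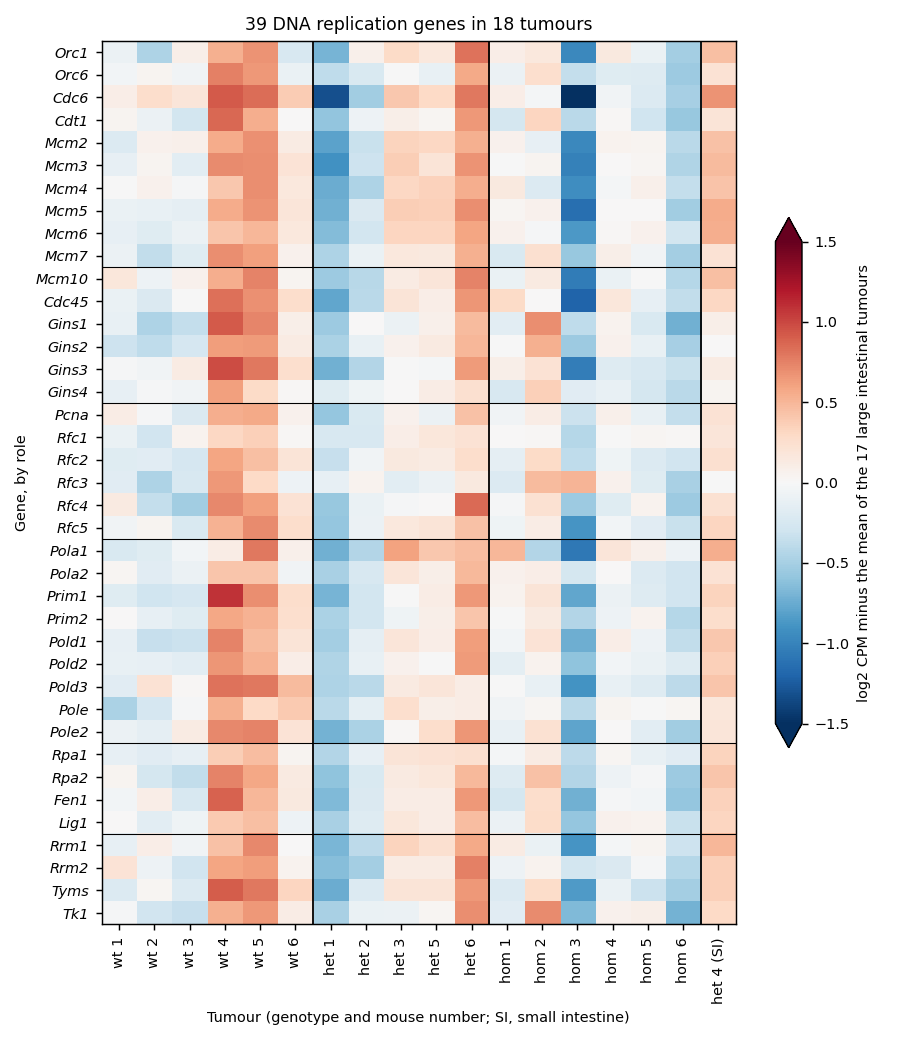
Log2 CPM of each replication gene (rows, grouped by role) in each of 18 tumours (columns), relative to the mean of the 17 large intestinal tumours, with red for higher, blue for lower and the colour ends set at 1.5 log2 units. Columns wt 4, wt 5 and het 6 are red and columns het 1, hom 3 and hom 6 are blue for most genes, while Rfc3 is red in hom 3.

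Hom tumours were set against wt tumours to ask whether loss of both Macrod2 copies went with another level of replication genes. Every one of the 39 genes had a lower estimate in hom, with a median log2 fold change of -0.37, against -0.03 over all genes, of which 54.3% had a lower estimate. None of the 39 passed an adjusted p of 0.05 in edgeR's quasi-likelihood test with Benjamini-Hochberg adjustment over all genes (smallest adjusted p = 0.258), and in all 1 gene (0.00701%), Macrod2 itself, did. At an unadjusted p under 0.05, 9 were lower and 0 higher, where 10.6% of all genes were lower and 5.35% higher. Of 39 genes, 27 had a log2 fold change of -0.3 or below, as did 18.6% of all genes. The 95% intervals held 0 for 30 of the 39 genes, and their half-width had a median of 0.461 log2 units.

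Licensing genes came first by size of estimate. All 10 were lower in hom (median log2 fold change -0.44), 2 of them at an unadjusted p under 0.05. For this and each later role, 54.3% of all genes had a lower estimate and 10.6% were lower at that p. Roles of 4 to 10 genes are too small for 1 or 2 calls to be read against that share. Cdc6, the factor that brings the helicase to the origin recognition complex, had a lowest, median and highest level of 25.9, 30.2 and 45.9 CPM in wt and 7.62, 22.1 and 25.8 CPM in hom, and stood at 9.58, 16.8, 31.8, 29.7 and 42.0 CPM in het 1, 2, 3, 5 and 6. It was the only gene of the 39 whose hom tumours all lay below all wt tumours, with a gap of less than 0.1 CPM, and 0.315% of all genes had such a separation in this direction. No gene of the 39 had all hom tumours above all wt tumours, as 0.364% of all genes did. Its log2 fold change was -0.80 (SE 0.32, edgeR adjusted p = 0.276). Its partner Cdt1 had 33.9, 41.6 and 74.3 CPM in wt, 27.5, 33.6 and 51.3 CPM in hom, and 27.0, 38.9, 43.6, 41.6 and 64.3 CPM in the het tumours in the same order. Hom 3, hom 5 and hom 6 lay below every wt tumour and the other 3 hom tumours lay among them (log2 fold change -0.44, SE 0.22, adjusted p = 0.331).

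The MCM ring was lower in hom by estimates of -0.30 to -0.48 on the log2 scale, and all 6 intervals held 0. Mcm2 had 100.4, 124 and 186 CPM in wt and 59.3, 113 and 121 CPM in hom, with 66.4, 91.7, 147, 144 and 168 CPM in het. Mcm6 had 134, 157 and 215 CPM in wt and 83.5, 152 and 159 CPM in hom, with 97.1, 126, 189.9, 190.1 and 229 CPM in het. For both genes hom 3 and hom 6 were the hom tumours below every wt tumour, and the other 4 lay within the wt range. The log2 fold change was -0.45 for Mcm2 (SE 0.23, adjusted p = 0.333) and -0.30 for Mcm6 (SE 0.21, adjusted p = 0.458). Among the origin recognition genes Orc6 was at -0.45 (edgeR adjusted p = 0.286) and Orc1 at -0.31 (adjusted p = 0.540).

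The genes that turn the loaded ring into a working helicase were lower in hom in 6 of 6 estimates (median log2 fold change -0.39), and 2 had an unadjusted p under 0.05. Gins3 had 6.77, 8.04 and 14.02 CPM in wt, 3.37, 6.06 and 8.24 CPM in hom, and 4.24, 5.17, 6.998, 6.94 and 11.01 CPM in het. Hom 1 and hom 2 lay within the wt range and the other 4 hom tumours below it, at -0.63 on the log2 scale (SE 0.26, adjusted p = 0.280). Gins2, from the same complex, had 16.9, 21.3 and 34.5 CPM in wt and 15.1, 21.3 and 32.1 CPM in hom, with 15.9, 20.5, 23.1, 24.2 and 31.2 CPM in het. The Gins2 medians of wt and hom were alike, and the interval of its log2 fold change of -0.21 ran from -0.69 to 0.27. Mcm10, which activates the helicase, was at -0.52 (adjusted p = 0.295) and Cdc45 at -0.46 (adjusted p = 0.392).

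For the clamp and its loader, 6 of 6 estimates were lower (median log2 fold change -0.31), and 1 had an unadjusted p under 0.05. Pcna had 104, 127 and 179 CPM in wt and 93.7, 114 and 129.6 CPM in hom, with 80.0, 102, 126, 113 and 163 CPM in het. Hom 3 and hom 6 lay just below the lowest wt tumour (log2 fold change -0.33, SE 0.17, adjusted p = 0.330). Rfc5, a subunit of the loader that opens the clamp, had 26.6, 34.9 and 51.0 CPM in wt, 16.9, 28.9 and 33.9 CPM in hom, and 20.93, 29.3, 35.0, 35.8 and 42.3 CPM in het. Its hom 3 and hom 6 tumours were below every wt tumour and 4 were within the wt range (log2 fold change -0.47, SE 0.20, adjusted p = 0.284). The smallest estimate was that of Rfc3, at 39.1, 49.6 and 84.9 CPM in wt and 38.5, 51.9 and 76.6 CPM in hom. Its highest hom value came from hom 3, the tumour that was lowest for 25 other genes. The log2 fold change of Rfc3 was -0.01, with an interval of -0.40 to 0.38, and its sign turned under 21 of 32 alternative settings, so its direction is not settled.

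Polymerase and primase genes were lower in hom in 9 of 9 estimates (median log2 fold change -0.35), 2 of them at an unadjusted p under 0.05. The smallest p of all 39 genes belonged to Pold3, whose product holds polymerase delta on its template and also serves in break-induced repair. Pold3 had 96.4, 138 and 192 CPM in wt and 58.3, 97.6 and 108 CPM in hom, with 78.8, 81.8, 119, 123 and 118 CPM in het. Hom 1, hom 2 and hom 4 lay above the lowest wt tumour, wt 1, and all hom tumours lay below the other 5. The log2 fold change was -0.69 (SE 0.19, interval -1.09 to -0.28, edgeR adjusted p = 0.258). The catalytic Pold1 was at -0.31 (interval -0.77 to 0.15, adjusted p = 0.463). Pole2, a subunit of the leading-strand polymerase epsilon, was at -0.52 (adjusted p = 0.303), and its catalytic partner Pole at -0.20 (adjusted p = 0.518). Pola1 was at -0.21 with an interval of -0.78 to 0.36.

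Genes that bind and seal strands were lower in 4 of 4 estimates (median log2 fold change -0.27), and 1 had an unadjusted p under 0.05. Fen1, the flap nuclease that trims Okazaki fragments, had 49.9, 64.4 and 109 CPM in wt and 35.6, 53.3 and 70.8 CPM in hom, with 37.1, 50.9, 63.8, 63.6 and 92.7 CPM in het. Hom 1, hom 3 and hom 6 lay below every wt tumour, hom 1 by less than 1 CPM (log2 fold change -0.49, SE 0.23, adjusted p = 0.303). The DNA ligase gene Lig1 had 71.2, 77.4 and 109 CPM in wt, 52.9, 78.3 and 96.2 CPM in hom, and 56.8, 69.1, 89.1, 85.7 and 109 CPM in het. Its hom median was no lower than its wt median, and the log2 fold change of -0.21 had an interval of -0.57 to 0.15.

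Nucleotide supply genes were lower in 4 of 4 estimates (median log2 fold change -0.40), and 1 had an unadjusted p under 0.05. Tyms had 45.8, 59.7 and 98.7 CPM in wt and 29.1, 43.9 and 63.8 CPM in hom, with 31.4, 45.7, 60.1, 60.3 and 83.1 CPM in het. Hom 2 and hom 4 lay within the wt range and the other 4 below it, hom 1 by less than 1 CPM (log2 fold change -0.61, SE 0.25, adjusted p = 0.276). Rrm2, the S phase subunit of ribonucleotide reductase, had 68.0, 90.6 and 128 CPM in wt, 61.7, 74.8 and 85.9 CPM in hom, and 53.0, 58.3, 89.96, 90.2 and 140.1 CPM in het. Only hom 6 lay below every wt tumour for Rrm2 (log2 fold change -0.40, SE 0.21, adjusted p = 0.345). Tk1, the thymidine kinase of the salvage pathway, was at -0.22 with an interval of -0.75 to 0.31.

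**Figure D3:**
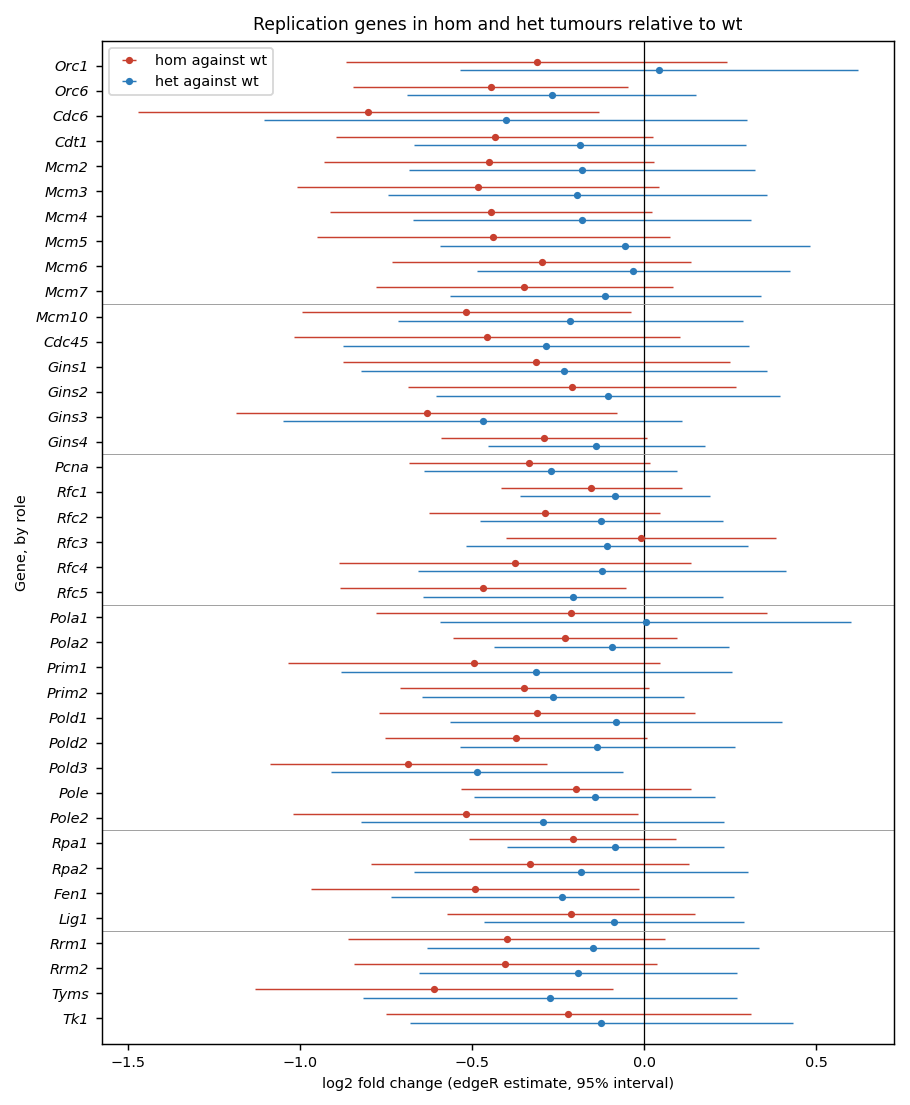
Log2 fold change of each replication gene, by role, in hom (red) and het (blue) tumours relative to the same wt tumours, with edgeR estimates as points and 95% intervals as lines. All 39 hom estimates are at or left of 0, from -0.80 for Cdc6 to -0.01 for Rfc3, and the hom intervals of 30 genes cross 0.

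The count of 9 rested on single tumours, most of them at the ends. It was 1 without wt 4 (4.92% of all genes), 1 without wt 5 (6.30%), 2 without hom 3 (8.02%), 2 without hom 6 (5.43%) and 5 without hom 4 (6.96%), a tumour in the middle of the order, and the median log2 fold change was -0.23 without wt 4 and -0.26 without wt 5. With library totals in place of TMM factors 1 gene remained past an unadjusted p of 0.05 (2.16% of all genes), with a median of -0.25 for the 39 genes and 0.11 for all genes. Leaving out wt 1 and wt 2 gave 20 lower genes at that level (13% of all genes), a median of -0.48 and 0 past the adjusted threshold, where 0.00695% of all genes were past it as lower. Without wt 3 as well, which leaves wt 4, wt 5 and wt 6, the 3 tumours with the lowest small intestinal marker scores, 1282 genes passed, 5% of all genes as higher. Of the 39, 3 did, where 3.8% of all genes passed as lower: Pold3 (log2 fold change -0.95, edgeR adjusted p = 0.0337), Tyms (-0.93, adjusted p = 0.0455) and Rfc2 (-0.53, adjusted p = 0.0472). In that setting the median of the 39 genes was -0.60 and 31 were lower at an unadjusted p under 0.05 (16.6% of all genes). The tumours left out had the lowest scores of the wt group for the 39 genes, -0.08 in wt 1, -0.14 in wt 2 and -0.13 in wt 3. Wt 4, wt 5 and wt 6, which remain, were at 0.64, 0.60 and 0.13, so the setting itself raises the wt level of these genes. With all 17 tumours DESeq2 passed 0 of the 39 (0.154% of all genes) and had 9 lower at an unadjusted p under 0.05 (9.81%), while limma-voom passed 0 (0.00701%) and had 10 lower (9.49%).

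Beside these values the makeup of the tumours differed too, and its part in the result was not tested. Of 12 fibroblast markers 11 were tested and all 11 had a higher estimate in hom than in wt (median log2 fold change 0.57), 5 of them at an unadjusted p under 0.05 and 0 past the adjusted threshold. Their summed level was 339 to 626 CPM in wt, 368 to 693 CPM in het and 458 to 1047 CPM in hom, and no marker was at 0 throughout. Of 16 epithelial markers 7 were lower and 9 higher in hom (median 0.01), with sums of 13208 to 24263 CPM in wt and 16315 to 20045 CPM in hom. The 3 tumours highest for replication genes had low fibroblast scores, -0.35 in wt 4, -0.84 in wt 5 and -0.48 in het 6 (log2 units from the mean). Among the 3 lowest, hom 6 had the highest fibroblast score of all, 0.87, het 1 had 0.34, and hom 3 had -0.25. Other tumours did not follow this order. Het 3 had a fibroblast score of -0.51 and hom 4 one of 0.50, with replication scores of 0.15 and -0.01. Markers of small intestinal epithelium, most of them enterocyte genes, differed between the tumours at the ends, and their part in the result was not tested either. All 15 were tested, and in hom against wt 10 were lower and 5 higher (median log2 fold change -0.21), 1 of them lower at an unadjusted p under 0.05 and 0 past the adjusted threshold. Their sums ran from 2450 to 53139 CPM in wt, 5651 to 20530 CPM in het and 6339 to 26209 CPM in hom. Wt 1 and wt 2 had 37144 and 53139 CPM, and the other wt tumours 8759 CPM or less. On the log2 score per tumour the direction was the opposite, with a mean of -0.62 ± 2.04 (SD) in wt and 0.56 ± 0.95 in hom. The direction between hom and wt therefore depends on the measure. The score of this list was -3.46 in wt 4, -1.68 in wt 5 and -0.61 in het 6, all high for replication genes, and -1.82 in wt 6. It was 1.29 in hom 3, 1.79 in hom 6 and -0.30 in het 1, all low for replication genes. Wt 2, het 3 and wt 1 had small intestinal scores of 1.60, 1.55 and 1.51, above hom 3. Their replication scores were -0.14, 0.15 and -0.08, away from both ends. Sis, the sucrase gene of the enterocyte brush border, had 1.095, 22.0 and 60.4 CPM in wt 4, wt 5 and het 6, and 811, 2528 and 506 CPM in hom 3, hom 6 and het 1. Krt20, a keratin of differentiated epithelium, had 481, 361 and 759 CPM in the first 3 and 1809, 1889 and 969 CPM in the others. Sis and Krt20 were picked after their values were seen, and other markers of both lists ran the other way. Elf3, of the epithelial list, had 814, 697 and 785 CPM against 686, 551 and 620 CPM. Lyz1, of the small intestinal list, had 2650, 905 and 2372 CPM against 913, 1208 and 546 CPM. The epithelial score was -0.14, -0.54 and 0.06 against 0.27, 0.05 and -0.02. With libraries scaled to the epithelial markers all genes together shifted to a median of -0.10, the 39 genes had a median of -0.43, and 7 were lower at an unadjusted p under 0.05 (8.14% of all genes). The 8 mast cell markers were all lower in hom (median -3.51), with 38.8 to 7921 CPM in wt and 46.9 to 236 CPM in hom.

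Other genes of the cycle were read from lists named by function. Of 42 further replication factors 40 had a lower estimate in hom than in wt (median log2 fold change -0.32), 8 of them at an unadjusted p under 0.05 and 0 past the adjusted threshold. Of all genes 54.3% had a lower estimate and 10.6% were lower at that p. Among the factors with the smallest p were Pole4 (-0.45) and Mcm8 (-0.76), a subunit of polymerase epsilon and a helicase of repair. Those at or above 0 were Rrm2b (0.21) and Mcm9 (0.07). Genes of G1/S control had 24 of 34 lower (median -0.18), 3 at an unadjusted p under 0.05, a share below the 10.6% of all genes, and 0 past the adjusted threshold. The cyclin genes Ccnd3 (-0.63), Ccnd1 (-0.40) and Ccne1 (-0.41) had the smallest p. E2f1 was at -0.39 (SE 0.21, adjusted p = 0.356), E2f2 at -0.13, Ccne2 at -0.31 and Myc at -0.19. Gmnn, which encodes the CDT1 inhibitor geminin, was at -0.36. The inhibitor gene Cdkn1a, which encodes p21, was at 0.29 with an interval of -0.11 to 0.70, at 129 to 271 CPM in wt and 183 to 326 CPM in hom. All 30 mitosis genes were lower (median -0.42), 3 at an unadjusted p under 0.05, a share close to that of all genes, and 0 past the adjusted threshold. The 3 were Ube2c (-0.72), Bub3 (-0.32) and Aurka (-0.60), which encode a ubiquitin-conjugating enzyme, a checkpoint protein and a kinase of the spindle. Mki67, the proliferation marker, was at -0.50 (SE 0.25, adjusted p = 0.339), with 208 to 419 CPM in wt and 112 to 313 CPM in hom.

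Het tumours, compared with the same wt tumours, had smaller estimates. Of the 39 genes 37 had a lower estimate, as did 56.8% of all genes, with a median log2 fold change of -0.18 against -0.03 for all genes. None passed (edgeR adjusted p = 0.999 for each). At an unadjusted p under 0.05 there was 1 lower gene, Pold3, where 1.67% of all genes were lower, and 0 were higher (1.18% of all genes). Its log2 fold change was -0.49 (SE 0.20, interval -0.91 to -0.06, edgeR adjusted p = 0.999), and het 1 and het 2 lay below every wt tumour while het 3, het 5 and het 6 lay between 118 and 123 CPM, within the wt range. The other estimates of size were Gins3 (-0.47), Cdc6 (-0.40) and Prim1 (-0.31), and all their intervals held 0. Orc1 (0.04) and Pola1 (0.004) were on the other side. Single tumours moved these values both ways. Without wt 4 the count of lower estimates was 23 and the median -0.02, and the median was -0.07 without wt 5, -0.04 without het 1 and -0.10 without het 2. Without het 6 all 39 were lower, with a median of -0.30 and 4 genes lower at an unadjusted p under 0.05 (3.2% of all genes). Wt 1, wt 2 and wt 3 had the lowest scores of the wt group for these genes. Without them all 39 were lower with a median of -0.40, and 0 passed the adjusted threshold. In that setting 8 were lower at an unadjusted p under 0.05, where 6.88% of all genes were: Pold3, Pole, Prim1, Prim2, Gins3, Rfc2, Pcna and Tyms. Of these Pold3 had the smallest adjusted p (edgeR adjusted p = 0.162). Beside this contrast all 10 endothelial markers had a lower estimate in het (median -0.35, 1 at an unadjusted p under 0.05). So did all 8 smooth muscle markers (median -0.39) and all 8 mast cell markers (median -1.73), 0 of them at that level. The part of these lists in the result was not tested.

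Hom against het asked about the loss of the second copy. Of the 39 genes 38 had a lower estimate in hom, against 51.8% of all genes, with a median log2 fold change of -0.21 and -0.01 for all genes. None passed the adjusted threshold in edgeR's test, and 0 had an unadjusted p under 0.05, where 1.03% of all genes were lower and 0.974% higher. The lowest were Cdc6 (-0.40), Mcm5 (-0.38) and Orc1 (-0.36), and Rfc3 was at 0.10. Without het 6 the median was -0.06 and 28 of the 39 were lower, without hom 3 the median was -0.13, and without het 1 it was -0.34. Of the marker lists, all 11 fibroblast genes tested had a higher estimate in hom than in het (median 0.34, 1 at an unadjusted p under 0.05), as did 9 of 10 endothelial genes (median 0.57, 3 at an unadjusted p under 0.05). Also higher were 7 of 8 smooth muscle genes (median 0.12), 10 of 12 leukocyte genes (0.21) and 11 of 15 small intestinal genes (0.31). All 8 mast cell genes were lower (median -1.79). In these 4 lists 0 genes had an unadjusted p under 0.05. None of these passed the adjusted threshold, and their part in the result was not tested. The 3 comparisons share groups of tumours and are not independent of each other. The mean CPM stood in the order wt above het above hom for 36 of the 39 genes, where 29.6% of all genes had this order; Orc1, Rfc3 and Pola1 did not follow it.

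Ratios of 2 genes in the same tumour compare members without the library's scaling. The log2 ratios of 6 pairs were compared in the 3 contrasts by exact two-sided permutation tests, adjusted over the 18, and with 6 against 6 or 6 against 5 tumours the smallest p they can give is 0.00216. None of the 18 passed. The pair with the smallest p was Pold3 over Pold1, both subunits of polymerase delta. Its log2 ratio averaged 2.06 ± 0.21 (SD) over the 6 wt, 1.66 ± 0.25 over the 5 het and 1.67 ± 0.13 over the 6 hom tumours. The difference was -0.38 in hom against wt (exact permutation p = 0.00649, adjusted p = 0.117) and -0.40 in het against wt (p = 0.0216, adjusted p = 0.130, exact permutation). Between hom and het it was 0.01 (exact permutation p = 0.920). Wt 1, at 1.75, and wt 4, at 1.88, lay within the range of the other groups, which ran from 1.29 to 1.88, and the other 4 wt tumours lay above it. Without wt 1 the adjusted p of hom against wt was 0.0390, and over all alternatives with a test it ranged from 0.0390 to 0.214. The highest is that without wt 1, wt 2 and wt 3, where the difference was -0.35 and so few wt tumours remain that 1 ratio alone cannot pass.

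**Figure D4:**
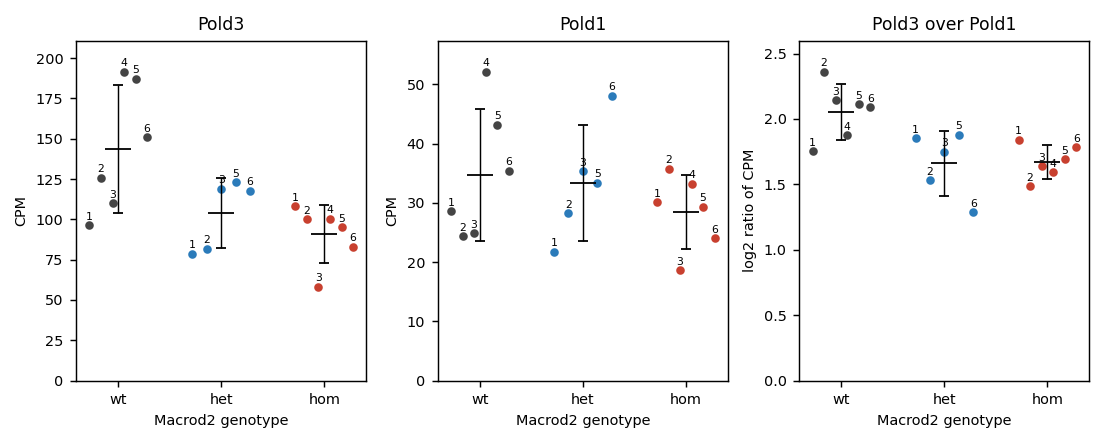
Pold3 and Pold1 in CPM and the log2 ratio of their CPM in each large intestinal tumour, by Macrod2 genotype, with mouse numbers beside the points and mean ± SD as bars. Pold3 averages 144 CPM in wt and 90.9 CPM in hom, Pold1 34.8 and 28.5 CPM, and 4 wt tumours have a ratio above every het and hom tumour.

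Replication genes against the proliferation marker gave no shift past the threshold. The log2 ratio of Mcm6 to Mki67 averaged -0.87 ± 0.13 (SD) over the 6 wt, -0.60 ± 0.16 over the 5 het and -0.66 ± 0.22 over the 6 hom tumours. It was 0.27 higher in het than in wt (exact permutation p = 0.0216, adjusted p = 0.130) and 0.21 higher in hom (p = 0.0823, exact permutation, adjusted p = 0.335). Pcna over Mki67 differed by 0.20 between hom and wt (exact permutation p = 0.301). The licensing factor and its inhibitor, Cdt1 over Gmnn, differed by -0.08 between hom and wt and by 0.04 between het and wt, with an adjusted exact permutation p of 0.779 for each. Between hom and wt Rrm2 over Rrm1 differed by 0.03 (adjusted exact permutation p = 0.885) and Orc1 over Orc6 by 0.11 (adjusted exact permutation p = 0.779).

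Genes with and without the E2F letters had similar differences between hom and wt. The 14 genes with the letters in the promoter window had a median log2 fold change of -0.39, from -0.80 for Cdc6 to -0.01 for Rfc3. The 18 without had a median of -0.40, from -0.61 for Tyms to -0.15 for Rfc1. The 7 genes without a window had a median of -0.29. Without wt 1, wt 2 and wt 3 the medians were -0.65 with the letters, -0.62 without them and -0.53 with no window. Both the largest and the smallest estimate therefore came from genes that hold the letters.

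The genes lie on 13 chromosomes by the GENCODE annotation of GRCm38. Pold3 spans chr7:100082111-100121565 on the - strand with up to 13 exons, and no annotated gene overlaps it on the opposite strand. Cdc6 spans chr11:98907801-98923940 on the + strand with up to 13 exons, Gins3 chr8:95633453-95645060 on the + strand with 3, Tyms chr5:30058202-30073617 on the - strand with 8 and Rfc3 chr5:151642756-151651242 on the - strand with 9. An annotated gene overlaps 16 of the 39 on the opposite strand. For 8 of them (Orc6, Mcm7, Gins2, Rfc2, Rfc4, Rfc5, Fen1 and Tk1) the partner is also in the count table, and since the sources used here do not give the strand setting of the counting, their counts are uncertain by reads that the partner could give. Such pairs include Rfc5 with Wsb2, Fen1 with Tmem258 and Orc6 with Vps35.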

How the data were processed

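The deposited counts are whole reads per gene in 18 libraries, and the authors deposited RPKM beside them. Per the labels' protocols, total RNA (AllPrep kit) was made into TruSeq Stranded Total RNA libraries, while the molecule field names polyA RNA. TopHat and Trimmomatic are named in the submitters' processing notes, with featureCounts (Subread 1.4.5-p1) and mm10. In every library the deposited RPKM equalled counts per length and library total times 1 factor per library.

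Counts of the 17 large intestinal tumours were fitted with edgeR 4.0.16 in R 4.3.3 (filterByExpr, TMM over the genes kept, robust quasi-likelihood test, Benjamini-Hochberg adjustment over 14271 genes, threshold 0.05). Levels are CPM with TMM factors over 18 libraries, log2 CPM has a prior count of 2, and ratios have 0.1 CPM added to each gene. Alternatives used DESeq2 1.42.0, limma 3.58.1, other scaling and filters, a replicate block and left-out tumours. No 2 libraries were repeats of each other (lowest chi-square per degree of freedom 17.7). Scripts were tested on simulated counts.

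The members, the lists and the tests were chosen with earlier results of these data known. Any of the 39 genes may be named; values per tumour are given for the smallest p of each role and for Mcm2, Mcm6, Cdt1, Cdc6, Pcna, Pold3, Rrm2, Tyms, Gins2 and Lig1, and from other lists up to 3 genes with the smallest p and 8 chosen ones; 1 gene that this rule names is not reported here. Rrm2b, Mcm9, Rn45s, Lct, Sis, Krt20, Elf3, Lyz1, Fabp6 and the Hox genes were named after their values were seen. The titles number the mice within a genotype, and each tumour was counted as 1 animal. Promoter windows are RefSeq's for GRCm38.p6.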

Additional observations from a re-analysis of the deposited data

Results flagged for a closer look

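Values of 1 tumour that stood apart from the rest of its genotype were looked for in 117 groups of 1 gene in 1 genotype, by the gap to the nearest tumour as a share of the range, and 6 were found; chance alone marks about 1 in 20 groups. Hom 3 gave 5 of them, each as the lowest hom tumour. Cdc6 was at 7.62 CPM there and at 16.996 to 25.8 CPM in the other 5, and Mcm6 at 83.5 CPM against 125 to 159 CPM. Rfc1, the large loader subunit, was at 57.1 CPM against 76.5 to 78.4 CPM, Pold2 at 35.1 CPM against 46.8 to 55.3 CPM, and Pole at 44.7 CPM against 57.3 to 61.3 CPM. In wt 5 Pola1 was at 49.8 CPM, against 24.7 to 31.3 CPM in the other wt tumours.

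The small intestinal het tumour was in no comparison. Its Mcm6 level of 222 CPM lay above every wt tumour, and for the other 38 genes it lay within the wt range.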

How the results depend on the processing

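In hom against wt the 39 genes kept a lower median under all 32 alternatives, and 0 passed an adjusted p of 0.05 under 31 of them. Without wt 1, wt 2 and wt 3 together 3 members and 1282 genes passed. DESeq2 called 22 genes and 0 members, with 9 members lower without adjustment (p under 0.05). In limma-voom 1 gene and 0 members passed, and 10 members were lower in that sense. The 9 members lower at an unadjusted p under 0.05 became 1 with library totals, 20 without wt 1 and wt 2, 31 without wt 1, wt 2 and wt 3, and 1 to 13 with 1 tumour left out. The share of all genes moved too, and was 2.16% with library totals and 16.6% without wt 1, wt 2 and wt 3. These counts cannot be compared without that share, which is not given for the 13, the count without wt 1. The median ran from -0.42 to -0.23 and the genes past the threshold from 1 to 2 with 1 tumour left out. In het against wt the lower estimates numbered 23 to 39 with 1 tumour left out, and in hom against het fitting the 2 groups alone passed 0 genes in place of 1.

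Rfc3 in hom against wt had the opposite sign with DESeq2 size factors (0.0137), library totals (0.105), upper-quartile factors (0.0293), Rn45s, Rpph1 and Rmrp removed (0.0167), no filter (0.0209), a stricter filter (0.0150), DESeq2 (0.0136), 2 groups (0.0372), 18 tumours (0.0100) and library sizes over all genes (0.0101, an alternative chosen after seeing the data), and ran from -0.106 to 0.174 with 1 tumour left out. In hom against het Gins3 (-0.293 to 0.0630) and Pcna (-0.167 to 0.0820) turned without het 6. Ratios that turned with 1 tumour left out ranged, in hom against het, from -0.0359 to 0.138 for Rrm2/Rrm1, -0.0808 to 0.0670 for Pold3/Pold1, -0.00260 to 0.215 for Pcna/Mki67 and -0.117 to 0.0184 for Mcm6/Mki67. In het against wt they ranged from -0.105 to 0.0165 for Rrm2/Rrm1, -0.0109 to 0.132 for Pcna/Mki67 and -0.00278 to 0.0898 for Cdt1/Gmnn, and in hom against wt from -0.0833 to 0.0967 for Rrm2/Rrm1. Without wt 1, wt 2 and wt 3, an alternative chosen after seeing the data, Cdt1/Gmnn in hom against wt turned to 0.0450. The causes were not tested. In the 250 bases before the start alone, the E2F letters were in 25% of members (21.6% of their windows) and 1.86% of all windows. The CCAAT letters were in 33.8% of all windows. Over the whole window of genes past the filter, the E2F letters were in 3.56%.

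The mouse numbers are shared between genotypes, and of 16 same-numbered pairs of tumours 4 had a correlation of deviations over 0.1 (range -0.45 to 0.33). Pairs with different numbers were not set beside them, so this cannot settle whether the numbers pair the samples. The main fit treated the tumours as unpaired. With the replicate block 2 genes and 0 members passed in hom against wt (median -0.32, Rfc3 0.00110), and 0 genes passed in hom against het. The lowest count of a member was 57, and precision is limited by the number of tumours and their spread.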
